A study of Mus musculus with 6 samples.

Results

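The insulin-like growth factor (IGF) family described here comprises 10 genes of the mouse aorta: the ligands Igf1 and Igf2, the receptors Igf1r and Igf2r, and the binding proteins Igfbp2, Igfbp3, Igfbp4, Igfbp5, Igfbp6 and Igfbp7. The members were taken by gene symbol from a table of 55487 genes, and all 10 were among the 16565 genes that passed the filter on low counts. The table holds estimated counts from bulk RNA-seq of aortas from 3 control and 3 iSM KO male mice, with 24911609 to 40460467 counts per library and 62089 to 112040 counts over the 10 members. iSM KO mice were Myh11-CreERT2+; Prdm16 F/F, so that tamoxifen removed a floxed exon of Prdm16, a transcription factor gene, in smooth muscle cells. Control mice were Myh11-CreERT2+; Prdm16 W/W, and therefore carried the same Cre transgene without a floxed allele. Both groups received 1 mg tamoxifen per day by 10 injections from 8 weeks of age, and aortas were taken 60 days after a 2-week washout had ended. The Cre line is linked to the Y chromosome, which limits the model to males, and because Myh11 drives it in smooth muscle, other cells of the wall keep Prdm16. The adventitia, the outer connective tissue layer, had been removed by dissection. Prdm16 measured 183, 223 and 179 CPM (counts scaled by library size and TMM factor) in controls 1 to 3 and 93.8, 113 and 79.8 CPM in iSM KO 1 to 3, a log2 fold change of -1.03 ± 0.14 (SE; edgeR quasi-likelihood FDR 0.0026), so no library went against its label. Because only 1 exon is deleted, counts over the whole gene can remain in cells that lost it.

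IGF1 and IGF2 are secreted growth factors that signal mainly through the IGF1 receptor, a tyrosine kinase that activates the PI3K-AKT and RAS-ERK pathways, whereas the IGF2 receptor takes up IGF2 for degradation in lysosomes. In extracellular fluid most IGF is held by IGF-binding proteins, which limit or prolong its access to the receptor and are themselves cut by proteases that release the ligand. Smooth muscle cells of arteries both make and respond to IGFs, with effects on growth, survival and matrix production.

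2 of the 10 members passed an FDR of 0.05, beside 7.56% of all tested genes, Igfbp4 in the lower direction and Igf1r in the higher direction. The promoter regions of these 2 genes are shown because they are the members past this threshold. They are given with that of Igfbp7, the member with the highest RNA level. Each is the 250 bases before the transcription start in RefSeq (GRCm38.p6), 5′ to 3′ on the strand of the gene, with a TATA box (TATAAA) or GC boxes (GGGCGG) in capitals, sought on both strands.
Igfbp4: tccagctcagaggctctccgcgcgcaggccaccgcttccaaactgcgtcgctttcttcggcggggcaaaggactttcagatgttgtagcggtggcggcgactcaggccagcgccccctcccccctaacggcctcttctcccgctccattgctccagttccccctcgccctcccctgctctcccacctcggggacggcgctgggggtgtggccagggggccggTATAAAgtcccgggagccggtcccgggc
Igf1r: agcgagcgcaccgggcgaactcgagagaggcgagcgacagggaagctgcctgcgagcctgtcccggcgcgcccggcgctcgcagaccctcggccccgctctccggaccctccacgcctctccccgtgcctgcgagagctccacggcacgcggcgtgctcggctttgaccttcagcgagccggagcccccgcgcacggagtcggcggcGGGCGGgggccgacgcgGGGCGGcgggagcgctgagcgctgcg
Igfbp7: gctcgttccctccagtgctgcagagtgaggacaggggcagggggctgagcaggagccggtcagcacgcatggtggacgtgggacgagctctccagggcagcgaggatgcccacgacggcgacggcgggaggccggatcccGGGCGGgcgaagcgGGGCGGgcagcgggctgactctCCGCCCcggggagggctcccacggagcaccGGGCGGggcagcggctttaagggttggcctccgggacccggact
The Igfbp4 window (chr11:99040994-99041243, plus strand) held a TATA box that starts 28 bases before the transcription start and no GC box, and 69.2% of its bases were G or C. The Igf1r window (chr7:67952007-67952256, plus strand) held 2 GC boxes, 43 and 26 bases before the start, no TATA box, and 77.6% G or C. The Igfbp7 window (chr5:77408046-77408295, minus strand) held 4 GC boxes, no TATA box and 74.0% G or C. Among 32851 promoter windows of the same length, 12.4% held TATAAA, 32.7% held GGGCGG and the median G and C content was 52.4%. Neither the FOXO core motif GTAAACA, present in 3.17% of all windows, nor a CArG box, the site bound by serum response factor and present in 1.47%, occurred in these 3 windows. Over all 14 windows of the 10 members, 1 of the 4 of Igf2 held a CArG box and none held the FOXO core. Among members not called, Igfbp6 also had a TATA box, and Igf2, Igf2r and Igfbp2 had windows with GC boxes. The RefSeq start of Igf1r lies upstream of the gene start in GENCODE M21, whose coordinates are used for the genes.

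In the controls, Igf1 stood at percentile 28.7 and Igf2 at percentile 59.7 of tested genes by level per length of exon. Igf1 (chr10:87858265-87937042), the growth factor induced by growth hormone in many tissues, measured 11.5, 7.60 and 8.47 CPM in the controls and 8.61, 12.7 and 12.7 CPM in the iSM KO libraries. iSM KO 2 and 3 were above every control and iSM KO 1 was near the lower controls, so the groups overlapped. The log2 fold change was 0.30 ± 0.20 with a 95% interval of -0.14 to 0.74 (edgeR FDR 0.41). Igf2 (chr7:142650766-142666816), the imprinted ligand best known for fetal growth, measured 29.2, 17.2 and 16.4 CPM in the controls and 29.6, 31.1 and 44.1 CPM in the iSM KO libraries. The groups did not overlap, though only narrowly, because control 1 stood close to the lowest iSM KO library. The log2 fold change was 0.74 ± 0.23 (95% interval 0.21 to 1.26) and did not pass the threshold (edgeR FDR 0.099). Without control 1 it was 1.06 (FDR 0.017), and without any 1 of the other 5 libraries it was 0.53 to 0.84 and stayed over the threshold (FDR 0.13 to 0.24). With all 6 libraries DESeq2 gave 0.74 (FDR 0.0089). Of the exon bases of Igf2, 62.8% are shared with Gm49394, a gene annotated on the same strand that was listed at 0 in all libraries. The antisense gene Igf2os held 3 to 19 counts per library.

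Igf1r (chr7:67952827-68233668), the signalling receptor, rose. It measured 238, 241 and 217 CPM in the controls and 315, 294 and 274 CPM in the iSM KO libraries, and every iSM KO library was above every control. The means were 232 ± 13.4 and 295 ± 20.6 CPM (SD, n = 3 each), a 1.27-fold difference (log2 fold change 0.34 ± 0.087, 95% interval 0.15 to 0.54, edgeR FDR 0.046). The call was close to the threshold and was lost whichever of the 6 libraries was left out, with an FDR between 0.053 (without control 2) and 0.20 (without iSM KO 1), while the log2 fold change stayed between 0.29 and 0.39. Igf2r (chr17:12682406-12769664), which clears IGF2 and also sorts lysosomal enzymes, measured 126, 159 and 154 CPM in the controls and 147, 138 and 134 CPM in the iSM KO libraries. The groups overlapped, and the log2 fold change of -0.07 ± 0.10 had a 95% interval of -0.29 to 0.16 (edgeR FDR 0.73). The insulin receptor gene Insr, whose product can pair with the IGF1 receptor in hybrid receptors, measured 159, 152 and 166 CPM in the controls and 164, 154 and 140 CPM in the iSM KO libraries (log2 fold change -0.06, 95% interval -0.25 to 0.13, edgeR FDR 0.72). Per length of exon, Igf1r stood at 1.07 to 1.30 times the level of Insr in the controls and at 1.56 to 1.60 times in the iSM KO libraries, and these ranges did not overlap. The ratio of Igf1r to Igf2r per length was 0.780 to 1.05 in the controls and 1.13 to 1.19 in the iSM KO libraries. Both ratios were computed after the values of the receptors had been seen.

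**Figure D1:**
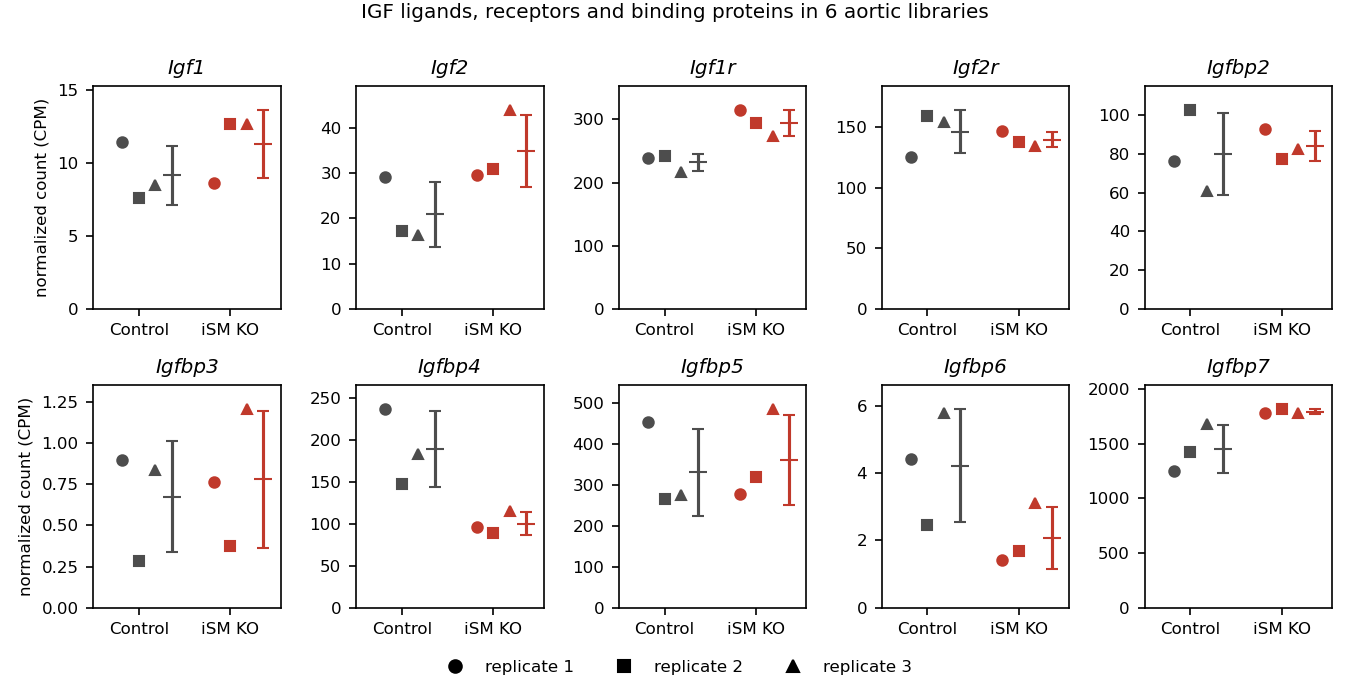
Normalized counts (CPM, linear axis from 0) of the 10 IGF family genes in each of 6 aortic libraries, with controls in grey and iSM KO in red; symbols mark replicates 1 to 3, and the bar beside each group is the mean ± SD (n = 3). The iSM KO libraries all lie above the controls for Igf2, Igf1r and Igfbp7 and all below them for Igfbp4, and the groups overlap for the other 6 genes.

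Igfbp4 (chr11:99041244-99054392), a binding protein that holds IGFs away from the receptor until the protease pappalysin cuts it, fell. It measured 237, 148 and 183 CPM in controls 1 to 3 and 96.2, 89.1 and 116 CPM in iSM KO 1 to 3. All iSM KO libraries were below all controls, and the controls spread more widely than the iSM KO libraries. This wider spread was general: over all tested genes the median SD of log2 CPM was 0.186 in the controls and 0.131 in iSM KO. The Igfbp4 means were 189 ± 44.7 and 100.3 ± 13.8 CPM (SD, n = 3 each), a level 1.89-fold lower in iSM KO (log2 fold change -0.92 ± 0.17, 95% interval -1.29 to -0.54, edgeR FDR 0.012). Leaving out iSM KO 1 or iSM KO 2 moved the FDR to 0.051 and 0.064, with log2 fold changes of -0.89 and -0.84. Igfbp6 (chr15:102144362-102149511), which prefers IGF2 over IGF1, measured 4.42, 2.45 and 5.79 CPM in the controls and 1.42, 1.69 and 3.12 CPM in the iSM KO libraries. Only iSM KO 3 lay within the range of the controls, and the log2 fold change of -1.01 ± 0.37 (95% interval -1.85 to -0.16) missed the threshold in edgeR (FDR 0.15) and passed it in DESeq2 (FDR 0.047). Its counts were 58 to 148 per library, against 3108 to 7935 for Igfbp4.

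Igfbp7 (chr5:77349240-77408041), a binding protein of low affinity for IGFs found in basement membranes and vessel walls, measured 1249.5, 1429 and 1683 CPM in the controls and 1779, 1816 and 1777 CPM in the iSM KO libraries. The groups did not overlap and the iSM KO libraries were nearly equal, with an SD of 22.3 CPM against 218 CPM in the controls. A wider spread of the controls was not particular to Igfbp7, since it was seen over all tested genes, as given for Igfbp4. The log2 fold change was 0.30 ± 0.12 with a 95% interval of 0.03 to 0.57 and missed the threshold (edgeR FDR 0.19). Igfbp5 (chr1:72857932-72874884), which binds matrix as well as IGFs, measured 454, 265 and 275 CPM in the controls and 279, 319 and 485 CPM in the iSM KO libraries. Control 1 and iSM KO 3 were both high, the groups overlapped, and the log2 fold change was 0.12 ± 0.25 (95% interval -0.44 to 0.68, edgeR FDR 0.81). Igfbp2 (chr1:72824503-72852474), whose gene lies 5458 bp from that of Igfbp5 with the 3′ ends facing each other, measured 76.3, 103 and 60.8 CPM in the controls and 92.9, 77.6 and 82.5 CPM in the iSM KO libraries. All 3 iSM KO values fell within the range of the controls (log2 fold change 0.08 ± 0.17, 95% interval -0.31 to 0.46, edgeR FDR 0.83). Although neighbours, the pair had different orders of libraries in both groups. Igfbp3 (chr11:7206086-7213923), the main carrier of IGF in blood plasma, had few counts, with 30, 11 and 20 counts in the controls and 31, 13 and 44 counts in the iSM KO libraries. Its log2 fold change of 0.24 ± 0.52 had a 95% interval of -0.94 to 1.42 (edgeR FDR 0.82), the widest of the 10 members.

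Over the family, 1 member rose and 1 fell, against 7.56% of the 16565 tested genes called in either direction, 4.26% higher and 3.30% lower. None of the 10 passed the threshold together with a fold change over 2, which 2.78% of tested genes did. At an unadjusted p under 0.05 and the same fold there was 1 member, Igfbp6, and DESeq2 also called 1. Leaving out a library raised the count to 1 in 3 of 6 fits: Igf2 without control 1 (log2 fold change 1.06), and Igfbp4 without control 2 (-1.06) or iSM KO 3 (-1.04). The groups did not overlap for 4 of the 10 members, against 27.9% of tested genes, which is not far from the background for so short a list. The median log2 fold change of the members was 0.18, with 7 positive and 3 negative, beside a median of -0.01 over all tested genes. The smallest two-sided p that exact permutation of 3 against 3 libraries allows for 1 gene is 0.1, so all tests rest on the model fitted across genes.

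**Figure D2:**
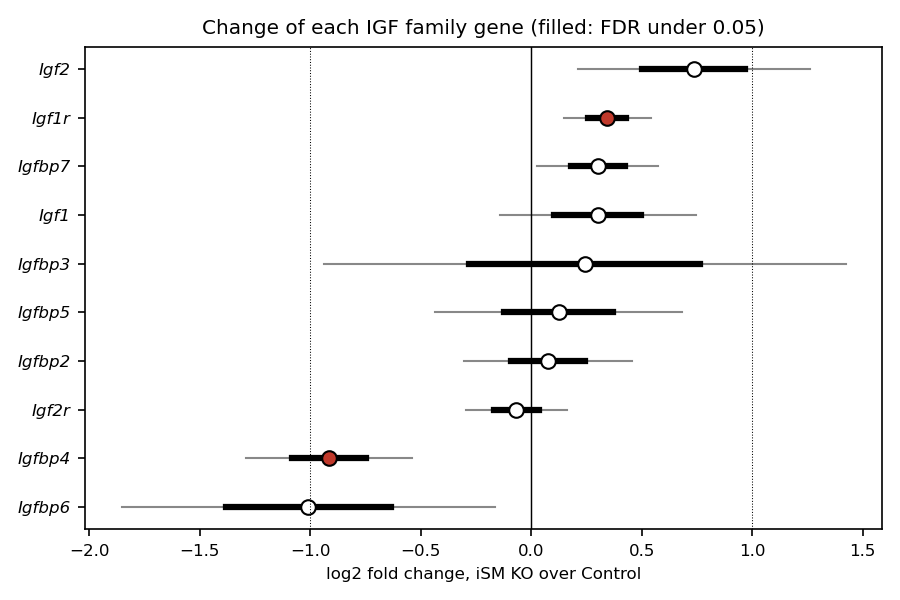
Log2 fold change of each IGF family gene, iSM KO over control (edgeR, 3 libraries per group), with thick bars for ± SE, thin bars for the 95% interval and dotted lines at a fold change of 2 in either direction. Filled points passed an FDR of 0.05: Igfbp4 at -0.92 and Igf1r at 0.34; Igfbp6 has a similar estimate to Igfbp4 with a wider interval.

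To compare genes with one another, CPM was divided by the exon length of each gene in kb. On this scale Igfbp7 was far above the rest, at 1202 ± 180.0 CPM per kb in the controls and 1481 ± 18.4 in the iSM KO libraries (SD, n = 3 each), and its control level was at percentile 99.8 of 16534 tested genes with a length. Igfbp5, Igfbp2 and Igfbp4 followed in the controls at 55.1, 43.3 and 42.9 CPM per kb, and neighbours in this group did not differ beyond their spread. The receptors came next, with Igf2r at 15.7 and Igf1r at 13.8 CPM per kb in the controls and overlapping ranges. Igfbp6 at 3.79 and Igf2 at 3.65 CPM per kb also overlapped, whereas Igf1 at 0.927 and Igfbp3 at 0.215 CPM per kb were each separated from the gene above. Igfbp3 stood at percentile 7.07 of tested genes.

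In the iSM KO libraries the order changed in 2 places. Igf1r at 17.5 CPM per kb stood above Igf2r at 15.0, and Igf2 at 6.10 stood above Igfbp6 at 1.87, in both cases without overlap. Igfbp4 at 22.7 CPM per kb was separated from Igfbp2 at 45.7, with which it had overlapped in the controls. These orders depend on the length used: with the longest transcript of each gene in place of all exons, Igf1r was above Igf2r, Igf2 above Igfbp6 and Igfbp2 above Igfbp5 in both groups.

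Igfbp7 made up 85.5 to 91.7% of the summed level of the 6 binding protein genes per kb in the controls and 90.5 to 92.8% in the iSM KO libraries, and these ranges overlapped. The share of Igfbp4 was 2.55 to 4.44% in the controls and 1.25 to 1.61% in the iSM KO libraries, without overlap. The summed level was 1208 to 1517 CPM per kb in the controls and 1591 to 1624 in the iSM KO libraries, and without Igfbp7 it was 126 to 175 and 117 to 155. The ratio of Igf2 to Igf1 per kb was 3.34 to 4.41 in the controls and 4.24 to 6.02 in the iSM KO libraries, so Igf2 exceeded Igf1 in every library.

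**Figure D3:**
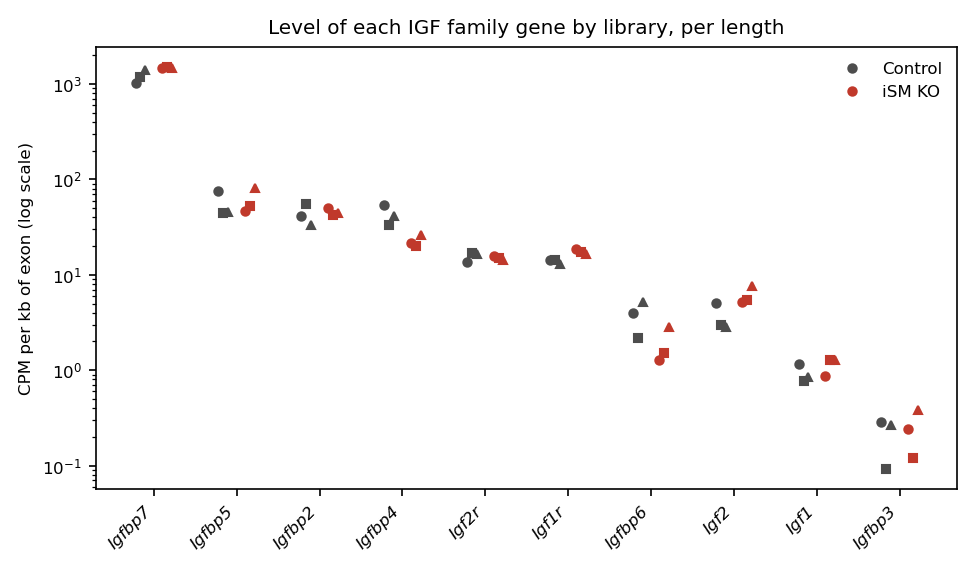
Level of each IGF family gene in CPM per kb of exon (log axis) in 6 libraries, ordered by the control mean, with controls in grey and iSM KO in red; symbols mark replicates 1 to 3. Igfbp7 lies more than a factor of 10 above the next gene in every library, and Igfbp4 lies below Igfbp5 and Igfbp2 in all iSM KO libraries.

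The lists of cell type markers were examined beside the members. Markers of smooth muscle summed to 22392 to 27357 CPM in the controls and 24004 to 26415 CPM in the iSM KO libraries. Of these 7 markers, Myocd, a coactivator of contractile genes, rose (log2 fold change 0.65, edgeR FDR 0.011, or 0.051 without iSM KO 1). All 8 fibroblast markers had a negative log2 fold change, with a median of -0.65 and 0 of 8 past the threshold in edgeR; their sum was 1150 to 1368 CPM in the controls and 828 to 873 CPM in the iSM KO libraries, and Col1a1 provided most of it. All 7 endothelial markers were also negative, with a median of -0.61, 0 past the threshold and sums of 469 to 955 and 243 to 739 CPM. Of 7 tested adipocyte markers 5 fell and Pparg rose, beside 3.30% lower and 4.26% higher among all tested genes. The adipocyte markers summed to 37.4 to 139 CPM in the controls and 25.2 to 27.6 CPM in the iSM KO libraries. All 8 macrophage markers were negative with 0 past the threshold, at 33.0 to 37.9 and 13.2 to 38.9 CPM. The 5 tested Schwann cell markers and the 3 tested skeletal and heart muscle markers had 0 past the threshold. Markers of mesothelial cells and of T and B cells were too low to test. Mesothelial markers summed to 0.418 to 1.25 CPM in the controls, 0.0491 and 0.229 CPM in iSM KO 1 and 2, and 2.74 CPM in iSM KO 3. Markers of T and B cells summed to 0.567 to 1.26 and 0.520 to 0.774 CPM. In bulk tissue, fewer cells of a type and less RNA per cell cannot be told apart. The adipocyte sum was 37.4, 139 and 122 CPM in controls 1 to 3, and how evenly outer tissue was removed was not tested.

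The order of the libraries was then compared with that of the markers, as a description. In the controls Igfbp4 was highest in replicate 1, then 3, then 2, the order shared by 6 of the 8 fibroblast markers, and in the iSM KO libraries its order was that of 1 of 8. Igf1 and Igfbp5 had the order of 6 of 8 fibroblast markers in each group. They also had that of 6 of 7 endothelial markers in the iSM KO libraries, but of 0 of 7 in the controls. Igf2 and Igfbp6 shared the iSM KO matches (6 of 8 and 6 of 7), but matched 1 and 0 of 8 fibroblast markers in the controls. Igfbp3 had the same order of libraries as Igfbp4 in both groups. Few orders are possible for 3 libraries, and no rate of such matches over all genes was computed. The order of Igfbp4 was that of 3 of 8 macrophage markers in the controls and 5 of 8 in the iSM KO libraries. Per summed CPM of the 7 fibroblast markers other than Col1a1, Igfbp4 stood at 0.597 to 0.711 in the controls and 0.482 to 0.624 in the iSM KO libraries, and these ranges overlapped. Per summed CPM of the endothelial markers it stood at 0.155 to 0.391 and 0.156 to 0.396, which also overlapped. Per summed CPM of the smooth muscle markers, Igfbp4 stood at 0.00541 to 0.0106 and 0.00346 to 0.00482, without overlap. Igf1r per summed CPM of the smooth muscle markers was 0.00883 to 0.0106 in the controls and 0.0114 to 0.0119 in the iSM KO libraries, also without overlap. Igf2 per summed CPM of the same fibroblast markers was 0.0563 to 0.0825 in the controls and 0.181 to 0.192 in the iSM KO libraries, without overlap, and Igf1, Igfbp5 and Igfbp7 did not overlap on this scale either, whose denominator was lower in iSM KO on average (188 against 298 CPM). Per summed CPM of the smooth muscle markers Igf2 was 0.000628 to 0.00131 in the controls and 0.00112 to 0.00184 in the iSM KO libraries, and these ranges overlapped. These ratios and the omission of Col1a1 were chosen after the values had been seen, and the part of each cell type in the results was not tested.

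**Figure D4:**
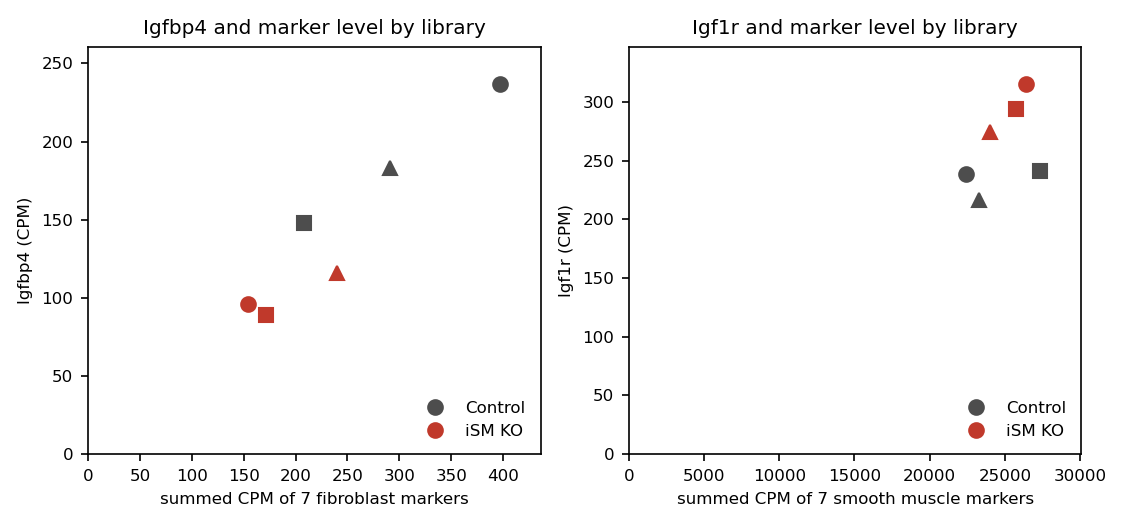
Left, Igfbp4 (CPM) against the summed CPM of 7 fibroblast markers (Col1a1 left out); right, Igf1r (CPM) against the summed CPM of 7 smooth muscle markers; each point is 1 of 6 libraries, controls in grey and iSM KO in red, with symbols for replicates 1 to 3. Control 1 is highest for both Igfbp4 and the fibroblast markers, the iSM KO points lie lowest for Igfbp4, and the Igf1r points of the iSM KO libraries lie above the controls within the same range of smooth muscle marker levels.

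The genes around the family were taken from 10 lists of related genes, proteases, signalling components and targets. Of 105 genes other than the members, 92 were tested, 5 rose and 9 fell, which is 15.2% beside 7.56% of all tested genes, and their median log2 fold change was 0.01. The lists were chosen with earlier results of these data known, so this comparison of shares is a description and not a test. Of these 14 genes, 4 passed the threshold under all 12 alternatives tried (Stc1, Plat, Inppl1 and Htra3). The genes most closely related to the family were nearly silent: Igfbp1, Igfbpl1, Igfals, Insrr, Ins1 and Ins2 were too low to test, and only Insr of that list was measured.

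The list of binding protein proteases and their inhibitors held 5 of these 14 genes. Of its 10 tested genes 2 were higher and 3 lower, beside 4.26% and 3.30% of all tested genes. The median log2 fold change of the list was -0.33. Stc1, stanniocalcin 1, a secreted inhibitor of pappalysins, measured 2.57, 2.55 and 1.80 CPM in the controls and 20.7, 19.1 and 16.9 CPM in the iSM KO libraries, a log2 fold change of 3.01 ± 0.16 (edgeR FDR 2.2e-05). The groups were far apart. Plat, tissue plasminogen activator, which makes plasmin from plasminogen, measured 63.2, 56.6 and 47.4 CPM in the controls and 133, 118 and 123 CPM in the iSM KO libraries (log2 fold change 1.16 ± 0.11, edgeR FDR 0.00047). Htra3, a secreted serine protease, was lower, at 102, 89.3 and 85.5 CPM against 55.4, 53.1 and 50.2 CPM (log2 fold change -0.80 ± 0.088, edgeR FDR 0.0010). Its relative Htra1, known to cut binding proteins, fell by 0.29 on the log2 scale (edgeR FDR 0.049), a call that was lost when any 1 of the 6 libraries was left out. Adam12, a metalloprotease at 0.716 to 1.80 CPM in the controls and 0.192 to 0.540 CPM in iSM KO, fell by 1.92 (edgeR FDR 0.046), and the call was lost without control 2, control 3, iSM KO 2 or iSM KO 3 (FDR up to 0.18). Pappa, the gene of the pappalysin that cuts Igfbp4 protein, measured 2.21, 1.85 and 1.09 CPM in the controls and 2.01, 2.52 and 2.33 CPM in the iSM KO libraries (log2 fold change 0.40, edgeR FDR 0.44). Stc2, the relative of Stc1, had a log2 fold change of 0.21 (edgeR FDR 0.74). Pappa2, the other pappalysin gene of the list, had a log2 fold change of -0.87 (95% interval -1.68 to -0.06, edgeR FDR 0.20). Pappa, Pappa2 and Stc2 are named for their link to Igfbp4 and Stc1, outside the rule for named genes.

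Downstream of the receptors, 3 of 53 tested genes in 4 signalling lists changed, which is 5.66% and near the 7.56% of all tested genes. Among 13 tested receptor substrates and adaptors only Grb10, an imprinted adaptor that restrains signalling by the insulin and IGF1 receptors, rose, from 44.7, 44.4 and 40.0 CPM to 57.5, 57.9 and 56.8 CPM (log2 fold change 0.42 ± 0.074, edgeR FDR 0.011). Without iSM KO 1 or iSM KO 2 its FDR was over the threshold, at most 0.072. Among 16 genes of the PI3K, AKT and FOXO list Inppl1, a lipid phosphatase that acts on the product of PI3K, rose from 61.0, 62.0 and 61.8 CPM to 87.2, 87.6 and 94.0 CPM (log2 fold change 0.54 ± 0.069, edgeR FDR 0.0022). Among 13 genes of the RAS and ERK list Dusp6, an ERK phosphatase, fell by 0.82 ± 0.17 on the log2 scale (edgeR FDR 0.024), with 24.1, 30.5 and 21.7 CPM in the controls and 12.6, 12.5 and 18.1 CPM in iSM KO. The Dusp6 call was lost without control 1, control 2, iSM KO 1 or iSM KO 2, with an FDR of at most 0.11. None of 11 mTORC1 genes passed in edgeR, where the smallest p was that of Ddit4, an inhibitor of mTORC1, with a log2 fold change of -0.57 (FDR 0.073).

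The growth hormone axis, through which Igf1 is induced, had 2 of 8 genes lower and 0 higher, beside 3.30% and 4.26% of all tested genes. Its median log2 fold change was -0.49. Ghr, the growth hormone receptor, measured 54.4, 45.6 and 43.0 CPM in the controls and 31.9, 29.7 and 33.5 CPM in the iSM KO libraries (log2 fold change -0.59 ± 0.10, edgeR FDR 0.0096, or 0.062 without iSM KO 2). Stat5a, which relays its signal, fell by 0.45 (edgeR FDR 0.039), and this call held in only 1 of the 6 fits that left out a library. Igf1 itself was not called. In the imprinted gene network, 12 genes tested with Igf2 among them, Grb10 rose, and Peg3 (log2 fold change -0.50, edgeR FDR 0.029) and Ndn (-0.84, FDR 0.048) fell. These were 1 higher and 2 lower, beside 4.26% and 3.30% of all tested genes. The Peg3 call held in 3 and the Ndn call in 1 of the 6 fits that left out a library. H19, which shares its imprinting control region with Igf2, was too low to test, with 61 counts in iSM KO 3 and at most 10 in any other library. Neither of the 2 tested genes for IGF2 mRNA-binding proteins passed, and the smaller p was that of Igf2bp2 (log2 fold change -0.37, edgeR FDR 0.61).

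Of 11 tested genes that respond to insulin or FOXO factors, 1 rose and 1 fell, beside 4.26% and 3.30% of all tested genes. Sesn3, a stress-response gene induced by FOXO factors, rose by 0.34 on the log2 scale (edgeR FDR 0.030), a call that held in 3 of the 6 fits that left out a library. Pck1, a gluconeogenic enzyme gene also active in adipocytes, measured 2.24, 28.6 and 19.3 CPM in the controls and 1.89, 1.52 and 1.20 CPM in the iSM KO libraries (log2 fold change -3.43, edgeR FDR 0.026). Controls 2 and 3 set this value, the same libraries in which the sum of the adipocyte markers was highest. Pparg, 1 of these markers, was instead highest in the iSM KO libraries. The Pck1 call held in 1 of the 6 fits that left out a library. The part of fat tissue in it was not tested.

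**Figure D5:**
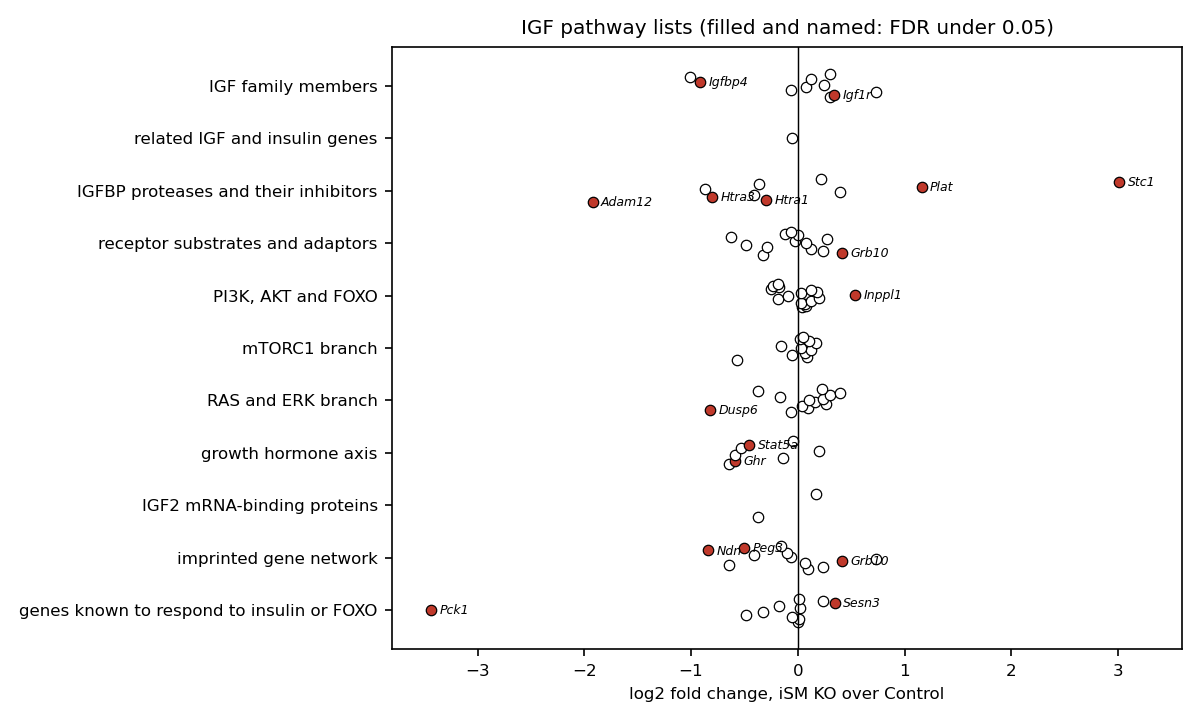
Log2 fold change, iSM KO over control (edgeR, 3 libraries per group), of each tested gene in the 10 IGF family members and 10 lists of related and downstream genes; 1 point is 1 gene, a gene in several lists is drawn in each, and filled, named points passed an FDR of 0.05. Stc1 at 3.01 and Plat at 1.16 stand to the right, Pck1 at -3.43 and Adam12 at -1.92 to the left, and most genes of the signalling lists lie close to 0.

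The nearest tested protein-coding gene on each side of each of the 10 members was examined for changes shared along the chromosome. Among these neighbours only Tns4 and Adcy1 passed the threshold, beside 7.56% of all tested genes. Neither neighbour of Igf1r did (Ttc23, edgeR FDR 0.065, and Pgpep1l, edgeR FDR 0.68). Tns4, a focal adhesion gene 11286 bp from Igfbp4, was lower in the iSM KO libraries at a mean of 0.518 CPM against 1.70 CPM (log2 fold change -1.70, edgeR FDR 0.013), and the call was lost without iSM KO 1 or iSM KO 2. Top2a, on the other side of Igfbp4, had a log2 fold change of -0.27 (edgeR FDR 0.68). Adcy1, an adenylate cyclase gene 27580 bp from Igfbp3, rose from a mean of 10.5 to 57.5 CPM (log2 fold change 2.45, edgeR FDR 2.6e-05), while Igfbp3 was not called. These neighbours were named after their values had been seen.

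The genes whose log2 CPM followed a member most closely over the 6 libraries were sought among 10313 genes with a mean of at least 5 CPM, as a description. For Igfbp4 these were Ppp1r21, Mindy2 and Trim12a, with Pearson correlations of 0.996, 0.996 and 0.995. For Igf1r they were Cacna1c, Afap1 and Lpp, at 0.997, 0.997 and 0.996. For Igf2 they were Asap1, Pelp1 and Ubr2, at 0.993, 0.992 and 0.990. All points share the difference between the 2 groups and the depth of the same 6 libraries.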

How the data were processed

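Bulk RNA-seq libraries of 3 control and 3 iSM KO mouse aortas were analysed, each from 1 mouse. Per the labels and the study's methods, the authors depleted ribosomal RNA, sequenced paired reads, and mapped and quantified them with DRAGEN against mm10. The deposited values are estimated counts per gene, with no normalization; 10.9 to 12.2% of the values per library were not whole. The sharing of multi-mapped reads and the strand setting of the counting are not given in the sources used here. All value columns were matched to samples by name.

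Counts were rounded, and genes with a count over 10 in all libraries of at least 1 group were kept. Differences were tested with edgeR 4.0.16 (TMM, glmQLFit, glmQLFTest, R 4.3.3) over all 16565 genes, with Benjamini-Hochberg adjustment and a threshold of FDR 0.05. SE is the log2 fold change divided by the square root of F. The methods named a fold change over 2 as well, which is reported separately. Lengths, neighbours and overlaps came from GENCODE M21 (GRCm38) and promoters from RefSeq, and similar transcripts were found with blastn 2.17.0. By this search, a 144 bp stretch of Igfbp4 matched Ctdspl2 at 95.1% identity. The fits were tested on simulated data.

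Named genes were all members, Prdm16, each pathway gene past the threshold, the gene with the smallest p in lists without one, markers where they bear on a member, and the 3 genes most like each of the 3 members with the smallest p. The members and lists were chosen with earlier results of these data known. Alternatives were DESeq2 1.42.0, limma-voom (limma 3.58.1), DESeq2's size factors, other filters, the replicate number as a block, leaving out each library, and another gene length.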

Additional observations from a re-analysis of the deposited data

How the results depend on the processing

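The direction of Igfbp4, Igf1r, Igf2, Igf1, Igf2r, Igfbp6, Igfbp7 and Prdm16 was kept under all 12 alternatives. Igfbp4 passed the threshold in 10 of 12 and Prdm16 in 12 of 12; Igfbp4 ranged from -1.06 to -0.71 on leaving out 1 library. Igf1r passed in 5 of 12: with the replicate block it was 0.34 (FDR 0.088), and on leaving out 1 library 0.29 to 0.39. The replicate block left Igfbp4 past the threshold and lowered the calls over all genes from 1252 to 775, and those of pathway genes that fell from 9 to 2; same-numbered libraries did not deviate together (correlations of -0.13, -0.05 and -0.11), so the numbers were not taken to pair the mice. With DESeq2, members called higher numbered 2 (Igf1r and Igf2) and lower 2 (Igfbp4 and Igfbp6), and 8 pathway genes were higher and 12 lower. Over all tested genes DESeq2 called 10.3%, against 7.56% in the main fit. Without a filter on low counts the members also numbered 2 and 2. No member was called higher with the replicate block (0). On leaving out 1 library, 0 to 1 members were higher, 0 to 1 lower, 3 to 6 pathway genes higher and 1 to 7 lower. Calls over all genes fell to 516 without iSM KO 2 and 624 without iSM KO 1. Without a filter they numbered 1777, which is 5.79% of the 30712 genes then tested, against 7.56% in the main fit. The sign changed for Igfbp2 without control 3 (-0.091) or iSM KO 1 (-0.0018), for Igfbp3 without control 2 (-0.15) or iSM KO 3 (-0.21), and for Igfbp5 without control 2 (-0.011) or iSM KO 3 (-0.15), none of them past the threshold; leaving out 1 library gave at most 0.30, 0.56 and 0.43 for these genes. The cause of these shifts was not tested, beyond fewer samples in the fits that left one out. Counts were lowest for Igfbp3 (11 to 44 per library) and Igfbp6 (58 to 148), and the other members had at least 202 in every library; how far depth sets the error of these genes was not tested.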
